A study of Mus musculus with 6 samples.

Results

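The regions described here are places of H3K4me3 enrichment that lie deep inside genes, far from any annotated promoter, and that were found in every peak list of the series. They were chosen by merging the overlapping peaks of the 6 lists and keeping the regions on chromosomes 1 to 19 that met a peak of all 6 lists, lay more than 10 kb from every transcript start of GENCODE release M21, and lay wholly inside the body of a protein-coding gene. There were 2236 such intragenic distal regions among 59286 merged regions, and among 20904 regions found in all 6 lists (10.7%). Because presence in the lists chose the members, presence is not a finding, and because the peak scores come from the same lists, strengths are given as descriptions with no test.

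The lists came from H3K4me3 ChIP-Seq of STHdh cells, immortalised mouse striatal progenitor cells with a C57BL/6 strain label, used as a cell model of Huntington's disease. All cells were deprived of serum for 24 hours. Q7SST is the wild-type line (labelled STHdh7) with DMSO vehicle, Q111SST is the mutant line (STHdhQ111, a homozygous knock-in of an expanded run of glutamine codons in huntingtin) with vehicle, and the other 4 lists are mutant cells with 10 uM cyproheptadine, loxapine, meclizine or diacylglycerol kinase inhibitor II (DKI). Each condition had 1 list, so no test between conditions was possible, and each genotype is 1 cell line, so genotype and line cannot be told apart. Cyproheptadine and meclizine are antihistamines and loxapine is an antipsychotic.

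Trimethylation of lysine 4 of histone H3 is laid down by SET1/MLL enzymes and is strongest around the start of active or poised genes, especially at CpG islands. Enhancers mostly carry the monomethylated form and often show little of the trimethylated one. Weak H3K4me3 away from starts is seen at very active enhancers and at promoters that an annotation lacks. AP-1 is a dimer of Fos and Jun proteins that binds many enhancers in adherent cells and responds to growth factors and stress.

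The sequences that the results turn on fall into a pair of kinds. The first are 3 narrow regions at the top of the strength ranking in introns of Chl1, 2210408I21Rik and Cdk5rap2. They are shown because each region has matches at many other places in the genome, of which identity is given for the best one only. Capitals mark the stretch of the best match elsewhere. All sequences are the plus strand of GRCm38 (mm10), taken from the RefSeq assembly of that build, and the Chl1 stretch is chr6:103649028-103649312, the 2210408I21Rik stretch chr13:77438887-77439077 and the Cdk5rap2 stretch chr4:70378097-70378276.
Chl1: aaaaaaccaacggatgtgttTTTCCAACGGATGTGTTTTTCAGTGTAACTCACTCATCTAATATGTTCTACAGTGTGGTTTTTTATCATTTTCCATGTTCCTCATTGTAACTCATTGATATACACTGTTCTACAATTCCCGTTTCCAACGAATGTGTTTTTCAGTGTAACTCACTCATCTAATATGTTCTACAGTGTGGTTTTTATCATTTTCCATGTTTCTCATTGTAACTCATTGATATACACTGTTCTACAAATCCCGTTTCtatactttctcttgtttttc
2210408I21Rik: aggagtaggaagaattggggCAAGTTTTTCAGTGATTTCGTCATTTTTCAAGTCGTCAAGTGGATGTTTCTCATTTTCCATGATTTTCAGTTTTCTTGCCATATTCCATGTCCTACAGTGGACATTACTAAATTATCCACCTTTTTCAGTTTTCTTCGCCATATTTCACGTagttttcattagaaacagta
Cdk5rap2: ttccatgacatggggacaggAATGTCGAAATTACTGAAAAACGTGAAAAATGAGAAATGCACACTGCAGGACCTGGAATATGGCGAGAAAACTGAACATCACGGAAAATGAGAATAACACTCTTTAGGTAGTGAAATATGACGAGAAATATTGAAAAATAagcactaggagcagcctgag

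The Chl1 region had 979 matches of at least 100 bp elsewhere in the assembly (E-value limit 1e-10), the best one on chromosome 2 over 246 bp at 95.5% identity. The 2210408I21Rik region had 1825 such matches, the best on chromosome 9 over 151 bp at 96.7%, and the Cdk5rap2 region had 1725, the best on a contig not placed on a chromosome over 140 bp at 92.9%. The marked stretches are short, and how closely the other matches resemble them is not given here. The part of read placement in the scores of these regions was not tested.

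The second kind holds the AP-1 motif, TGANTCA. This was the most frequent of the motifs searched in members, and the 5 strongest motif-bearing members that touch no exon are shown around the match nearest to the region's centre, with every match in capitals. The Ghr stretch is chr15:3356949-3357069, the Tmeff2 stretch chr1:51065525-51065645, the Rsu1 stretch chr2:13189226-13189346, the Itpr2 stretch chr6:146409859-146409979 and the Gli3 stretch chr13:15691912-15692032.
Ghr: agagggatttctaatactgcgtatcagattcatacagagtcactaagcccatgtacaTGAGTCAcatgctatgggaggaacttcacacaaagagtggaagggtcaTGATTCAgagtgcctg
Tmeff2: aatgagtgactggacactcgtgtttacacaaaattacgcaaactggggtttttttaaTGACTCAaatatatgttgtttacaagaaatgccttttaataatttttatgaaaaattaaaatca
Rsu1: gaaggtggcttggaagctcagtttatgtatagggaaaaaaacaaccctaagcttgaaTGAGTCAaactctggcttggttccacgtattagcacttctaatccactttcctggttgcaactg
Itpr2: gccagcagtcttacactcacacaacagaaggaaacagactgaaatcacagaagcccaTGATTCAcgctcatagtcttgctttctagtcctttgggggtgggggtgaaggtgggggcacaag
Gli3: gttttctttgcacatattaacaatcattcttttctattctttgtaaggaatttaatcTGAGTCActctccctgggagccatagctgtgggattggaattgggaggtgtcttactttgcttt

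The Ghr stretch holds 2 matches, TGAGTCA and TGATTCA, and the other 4 hold 1 each. Ghr, the growth hormone receptor, carried its region in intron 3, with scores of 337 in Q7SST, 159 in Q111SST, 170 under cyproheptadine, 245 under loxapine, 190 under DKI and 199 under meclizine. Tmeff2, a transmembrane protein with follistatin-like domains, had scores of 130, 174, 172, 248, 161 and 279 in the same order. By its rank within each list, explained below, the Ghr region stood highest in Q7SST and the Tmeff2 region lowest there.

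Rsu1 encodes a partner of integrin adhesions, and its region in intron 6 had scores of 82 in Q7SST, 147 in Q111SST, 153 under cyproheptadine, 305 under loxapine, 231 under DKI and 205 under meclizine. Itpr2, a calcium release channel of the endoplasmic reticulum, had 180, 185, 88, 131, 184 and 344 in the same order. Gli3, a transcription factor of Hedgehog signalling, had 118, 208, 142, 182, 116 and 204. The scale of the score was not given in the sources used here and the lists differ in size, so scores are printed as the lists give them, and lists are compared by the percentile of a region within each list.

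The lists held between 30758 peaks (DKI) and 45564 peaks (loxapine), and read depth is unknown. Members took 5.11% of the autosomal peaks with loxapine and 7.58% under DKI, and at least 98.7% of members held exactly 1 peak in any given list. As a check of the cells, promoters of marker genes were examined, a promoter being marked by a peak no more than 1 kb away. Of 10 neural progenitor markers, 4 were marked in all 6 lists (Vim, Dlx1, Dlx2 and Fabp7) and 0 in none. Of 10 markers of striatal neurons, 1 was marked in all 6 (Pde10a) and the dopamine receptor genes Drd1 and Drd2 in none, and 9 of 10 markers of other tissues were marked in none, the exception being Cftr in all 6.

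Intragenic distal regions differed widely in how many lists held them. Of all such regions, 4135 (37.1%) were in 1 list, 1292 (11.6%) in 2, 1010 (9.06%) in 3, 1046 (9.38%) in 4, 1427 (12.8%) in 5 and 2236 (20.1%) in all 6. The counts were high at both ends and low between. Members were wider than the regions of 1 list, with a median width of 1304.5 bp (middle 50% of members, 1042 to 1647.5 bp) against 403 bp. A merged region grows with the number of lists that contribute, so this difference is partly built in. At the same number of lists, distal intergenic regions had a median width of 1235 bp and regions within 1 kb of a start 1970.5 bp.

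Members were denser than their intergenic counterparts. Protein-coding gene bodies held 505 Mb more than 10 kb from every start and 4.43 members per Mb. Sequence outside these bodies held 974 Mb at that distance and 2.84 regions per Mb found in all 6 lists. Members came from every autosome, from 6.6% of the regions in all 6 lists on chromosome 7 (80 of 1212) to 14.5% on chromosome 15 (160 of 1105).

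Strength was ranked within each list as the percentile of the region's strongest peak among the same 20904 regions, so 50 is the middle of regions found everywhere. Members ranked low on this scale. Their median percentile was 24.5 in Q7SST (95% interval 22.9 to 25.2), 26.7 in Q111SST (24.9 to 28.4), 29 under cyproheptadine (26.8 to 30.1), 31.8 under loxapine (30 to 32.7), 27.8 under DKI (26.7 to 28.9) and 27.3 under meclizine (25.6 to 28.8). The intervals cover sampling of regions only and say nothing of the spread between cultures, and neighbouring regions are not independent. Ranked among all peaks of each list instead, which include those found in few lists, the middle of the 6 medians went from 27.5 to 52.2. Distal intergenic regions lay slightly higher in each list on the first scale, from 27.5 in Q7SST to 33.6 under loxapine.

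**Figure D1:**
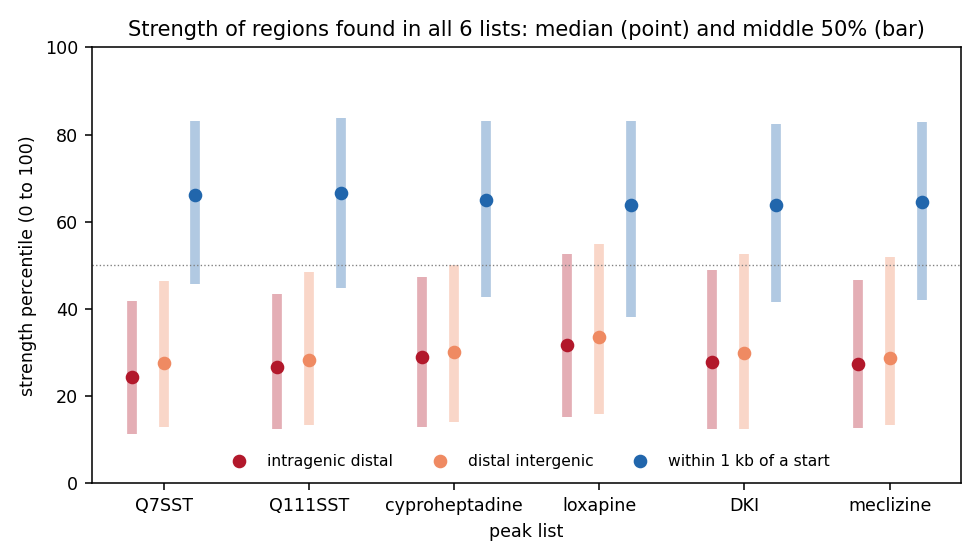
Strength percentile (0 to 100, among all regions found in all 6 lists) in each peak list, with points for the median and bars for the middle 50% of regions. Intragenic distal regions sit between 24.5 and 31.8 in the 6 lists, a little under distal intergenic regions and far under regions within 1 kb of a start.

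By the median over the 6 lists, 39 members (1.74%) stood above percentile 90, 428 (19.1%) above 50 and 343 (15.3%) under 10. The share above 50 in a single list ran from 17.6% in Q7SST to 27.6% under loxapine. Among members, the Spearman correlation of percentiles between 2 lists ran from 0.440 (Q7SST and cyproheptadine) to 0.796 (Q111SST and meclizine). The 5 correlations that involve Q7SST lay between 0.440 and 0.509, and the other 10 between 0.688 and 0.796. These are descriptions over 2236 regions that share the genome, and weak regions near the calling limit have a narrow range of scores. The same pairs reached 0.781 to 0.923 over regions within 1 kb of a start.

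The strongest member was in intron 3 of Chl1, which encodes a neural cell adhesion molecule of the L1 family, at chr6:103648929-103649435. Its scores were 669 in Q7SST, 908 in Q111SST, 1052 under cyproheptadine, 900 under loxapine, 1102 under DKI and 756 under meclizine, so it stood at percentile 100.0 in every list, while the Chl1 promoter was marked in 0 of 6 lists. The region in intron 19 of 2210408I21Rik scored 120 in Q7SST and 555, 620, 537, 771 and 302 in Q111SST, cyproheptadine, loxapine, DKI and meclizine. The region in intron 4 of Cdk5rap2, a centrosome gene, scored 89 in Q7SST and 534, 661, 483, 722 and 313 in the mutant lists. Both ranked at 99.5 or higher in each mutant list, and in Q7SST at 69.8 (2210408I21Rik) and 52.2 (Cdk5rap2). All 3 regions were narrow, at 507, 424 and 420 bp, and they are the ones whose stretches with a match elsewhere are printed above.

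The other 3 of the 6 strongest were wider. The Chrna1 region, in the gene of the muscle acetylcholine receptor alpha subunit, was 749 bp wide, touched coding sequence, and had scores of 349, 248, 220, 317, 231 and 267 in Q7SST, Q111SST, cyproheptadine, loxapine, DKI and meclizine. It had 0 matches elsewhere, lay 5621 bp from a RefSeq start, and the gene's own promoter was marked in 0 lists. The region in intron 2 of Rhobtb1 had percentiles from 95.6 in Q111SST and under loxapine to 98.8 in Q7SST and under cyproheptadine, with 303 matches elsewhere that reached 82.8% identity over 122 bp. The Gm17655 region lay between percentile 96.4 under cyproheptadine and 98.7 in Q111SST, and nearly its whole length (bases 1 to 1329 of 1346) aligned to chromosome 5 again at 87.1% identity.

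Sequence that recurs exactly was otherwise rare. Words of 50 bases were taken from the central 500 bp of each region only, so the outer parts of wider regions were not examined. A word was called repeated when it occurred more than once in the assembly. In 2059 members (92.1%) no word was repeated, and in 19 (0.85%) more than 50% of the words were, against 87 distal intergenic regions (3.15%). By this measure 15.1% of the words of the Chl1 region and 12.6% of those of the 2210408I21Rik region were repeated. None was repeated in the Cdk5rap2 region, whose best match elsewhere was at 92.9% identity. The window reaches past the edges of the 2210408I21Rik (424 bp) and Cdk5rap2 (420 bp) regions.

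The widest members differed in strength. The widest, 4770 bp in intron 8 of Tcf4, a helix-loop-helix transcription factor, stood at percentile 4.49 in Q7SST, 47.7 in Q111SST, 50.9 under cyproheptadine, 49.1 under loxapine, 66 under DKI and 60.8 under meclizine. The Rere region (4072 bp, in intron 1 of a nuclear receptor coregulator) lay between 35.9 under meclizine and 53.3 under DKI, and a RefSeq transcript start lies inside it. The Fstl1 region (3897 bp, in intron 2 of a secreted follistatin-like glycoprotein) lay between 10.4 under loxapine and 38.8 under DKI. The Tcf4 region was thus lowest in Q7SST by percentile, but its Q7SST peaks covered 4150 bp, against 899 bp under DKI to 1500 bp under meclizine in the mutant lists.

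Members lay within large genes, which is partly built in, because the rule asked for a place inside a gene body more than 10 kb from every start. The median distance to the nearest start was 22119 bp (middle 50%, 14786 to 36682 bp) and the largest was 307008 bp. The median length of the host gene was 179729 bp, and the centre of the median member lay 47.0% of the way from the 5′ to the 3′ end (26.0% to 69.5%). The median distance to the 5′ end was 68404 bp and to the 3′ end 83786 bp.

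Most members were intronic. Of 2236 members, 2009 (89.8%, Wilson 95% interval 88.5% to 91.0%) touched no annotated exon, 165 (7.38%) touched coding sequence and 71 (3.18%) an untranslated region. Exons made up 4.24% of the eligible gene-body sequence. Intron 1 of the longest transcript held 700 members (31.3%, 29.4% to 33.3%). Among members wholly in an intron of that transcript its share was 34.7%, against 22.5% of the eligible intron sequence.

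A RefSeq transcript start that GENCODE lacks lay within 1 kb of 80 members (3.58%, 2.88% to 4.43%), against 6.76% (5.89% to 7.76%) of distal intergenic regions. These 80 had a median percentile of 25.1 (19.2 to 36.9), against 26.9 (25.6 to 28.4) for the other members. The motif of AP-1 was in 28.8% of them (20.0% to 39.5%) and in 49.8% of the others (47.7% to 51.9%). Starts that neither annotation holds could not be counted.

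Strengths varied on both sides of the 10 kb limit. Just inside it, the region in Gm20388 at 10002 bp had a median percentile of 42.5, that in Sept11 at 10002 bp 24.1, and that in Fam102b at 10015 bp 68.8. Just short of it, and so not members, regions in Arhgef33 and Nav1 at 9998 bp had 71.1 and 36.5, and a region in 4931428L18Rik at 9999 bp had 2.12.

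In sequence, members were unlike promoters. In the central 500 bp, members had a median GC content of 43.4%, distal intergenic regions 44.0% and regions within 1 kb of a start 57.2%. The ratio of observed to expected CpG had a median of 0.206 in members and 0.651 near starts. Only 26 members (1.16%, 0.795% to 1.70%) were CpG dense, with at least 50% GC and a CpG ratio of at least 0.6. The share was 4.81% in distal intergenic regions and 51.4% near starts, and windows 5 kb to the left and right of the members had 0.0447% and 0.358%. The 26 CpG-dense members had a median percentile of 35.7 (27.4 to 50.4), against 26.7 (25.3 to 27.9) for the rest.

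The AP-1 motif TGANTCA, searched on both strands, stood out. It occurred in the central 500 bp of 1096 members (49.0%, 46.9% to 51.1%). The same-sized windows 5 kb to the left and right held it in 15.1% (13.7% to 16.7%) and 14.2% (12.8% to 15.7%). The share was 47.9% in distal intergenic regions, 42.9% in regions 1 to 10 kb from a start, 10.8% within 1 kb of a start, 36.9% (35.5% to 38.4%) in intragenic distal regions of 1 list, and 25.5% over all regions found in all 6 lists. In members, 804 windows held 1 match, 231 held 2, 57 held 3 and 4 held 4. The forms TGACTCA and TGAGTCA, which are reverse complements of each other, were in 40.1% of members against 8.01% and 8.99% of the flanks, and the forms TGAATCA and TGATTCA in 14.2% against 8.01% and 5.59%.

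The matches were concentrated at the centre. In bins of 100 bp, 14.7% of members (13.3% to 16.2%) had a match just right of the centre and 13.6% (12.3% to 15.1%) just left of it. The share was 3.58% at the far left edge, 2000 bp out, and 2.28% at the far right edge. Regions near starts showed no such centre.

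**Figure D2:**
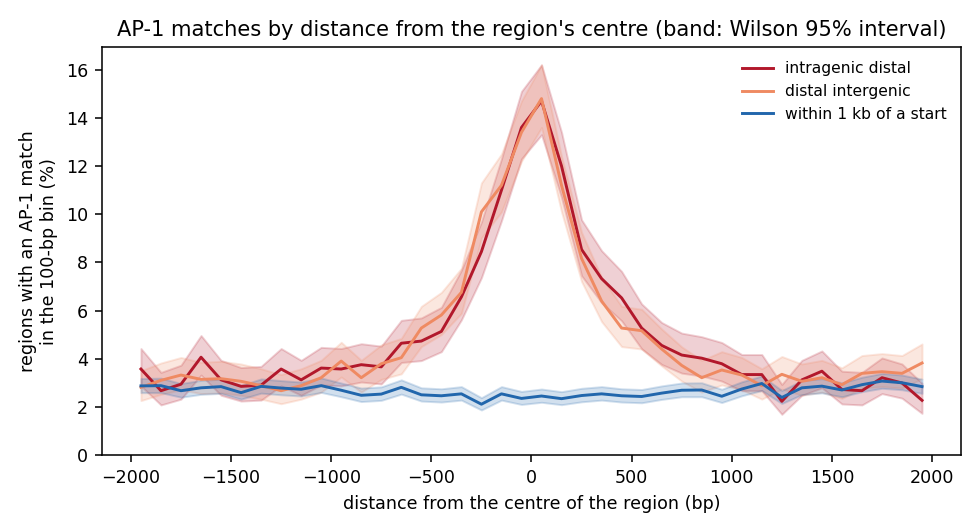
Percentage of regions with an AP-1 match (TGANTCA, either strand) in each 100-bp bin, against distance in bp from the centre of the region, with Wilson 95% bands. Intragenic distal regions peak at 14.7% beside the centre and fall to 2.28% to 3.58% at the edges, distal intergenic regions follow nearly the same curve, and regions within 1 kb of a start are flat.

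The TEAD motif GGAATG, bound by the partners of YAP and TAZ, was in 34.7% of members (32.8% to 36.7%) against 24.9% and 25.1% of the flanks and 26.3% of all regions. It was in 35.7% of distal intergenic regions and 33.1% of regions 1 to 10 kb from a start. The RUNX motif TGTGGT was in 40.2% (38.1% to 42.2%) against 34.0% and 34.4%, with 36.5% (34.7% to 38.3%) in distal intergenic regions and 27.8% over all regions. The CCAAT box of NFY was below the flanks, at 47.8% (45.7% to 49.8%) against 52.5% and 51.9%, with 44.1% over all regions.

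Motifs typical of promoters were scarce in members. The GC box GGGCGG was in 8.09%, against 51.5% near starts and 35.4% over all regions, although the flanks had only 4.74% and 5.05%. The ETS motif CCGGAAG was in 1.83% against 13.3% near starts and 8.90% over all regions, and the palindromic CRE TGACGTCA in 0.626% against 1.63% and 1.19%. The core of the CTCF motif was in 3.04% of members, 3.4% and 3% of the flanks and 3.77% over all regions. Each motif was counted on both strands and apart from the others, also where matches of different motifs overlapped. A match is a description of the letters and not evidence of binding.

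The 1096 members with an AP-1 match had a median percentile of 28.0 (26.2 to 30.7) and a median width of 1221 bp, and the other 1140 had 25.7 (23.8 to 27.4) and 1408 bp. When members were ordered by median percentile and divided into 5 groups of nearly equal size, the share with AP-1 was 41.4% (37.0% to 46.0%) in the weakest group and 49.1%, 51.3%, 50.0% and 53.2% (48.6% to 57.8%) in the next 4. The share with TEAD lay between 33.0% and 35.9% in the 5 groups with no order.

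Members were held by a minority of genes. Of 8819 protein-coding genes with sequence more than 10 kb from every start, 1381 (15.7%) held a member, of which 909 held 1, 263 held 2 and 209 held 3 or more. Of the members, 59 lay in more than 1 gene, and such a region counts for each of its genes and is named by the longest. Gm20388, with 17 members, is an annotated gene body of 4434.9 kb on chromosome 8 that runs over other genes, and its members include regions in Gse1, Zfpm1, Ankrd11, Sult5a1 and Galnt2. In the same way, 7 of the 9 members of Gm42906 lie in Stard13.

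Among ordinary genes, Akap6, which anchors protein kinase A, and Lpp, a focal adhesion protein, held 10 members each, and Nsmce2, a SUMO ligase of the SMC5/6 complex, and Pde4d, a cAMP phosphodiesterase, held 9 each. The Akap6 members spanned 414 kb and had median percentiles from 26.8 to 74.2, although the Akap6 promoter was marked in 0 of 6 lists. The promoters of Lpp, Nsmce2 and Pde4d were marked in all 6. Median percentiles ran from 3.39 to 83.5 among the Lpp members, from 9.42 to 72.5 in Nsmce2 and from 13.1 to 84.7 in Pde4d. The range was narrower in Akap6 than in the other 3 genes.

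Single regions within these genes also differed between lists. In Akap6 intron 2, the region at chr12:52828695-52829997 stood at 1.93 in Q7SST, 48.4 in Q111SST, 60.2 under cyproheptadine, 70.0 under loxapine, 83.4 under DKI and 74.8 under meclizine. In Pde4d intron 3, the region at chr13:109242266-109243726 stood at 92.4 in Q7SST and at 31.8, 23.3, 31.8, 18.1 and 32.2 in the mutant lists in the same order. These 2 regions, picked for their contrast after the values were seen, place Q7SST at opposite ends.

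The promoters of host genes were compared with those of other genes, to see whether genes with a member are also marked at their start. A gene counted as marked in a list that had a peak at most 1 kb from one of its annotated starts. Of 1381 host genes, 1108 (80.2%, 78.0% to 82.2%) were marked in all 6 lists and 146 (10.6%) in none. Of 7438 genes that held no member, 4353 (58.5%, 57.4% to 59.6%) were marked in all 6 and 2223 (29.9%) in none. Among the 209 genes with 3 or more members, 185 (88.5%, 83.5% to 92.2%) were marked in all 6.

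Host genes were longer, with a median eligible body of 73.1 kb against 14.5 kb, so the shares were also taken within classes of eligible length. Up to 20 kb, 74.7% of hosts (67.5% to 80.8%) and 61.3% of other genes (59.9% to 62.8%) were marked in all 6 lists. From 50 to 100 kb the shares were 84.1% (79.8% to 87.6%) and 56.6% (53.0% to 60.1%). Over 200 kb they were 68.3% (62.5% to 73.5%) and 27.8% (23.0% to 33.1%). The shares of hosts were higher in each of the 5 classes, with intervals that did not overlap.

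**Figure D3:**
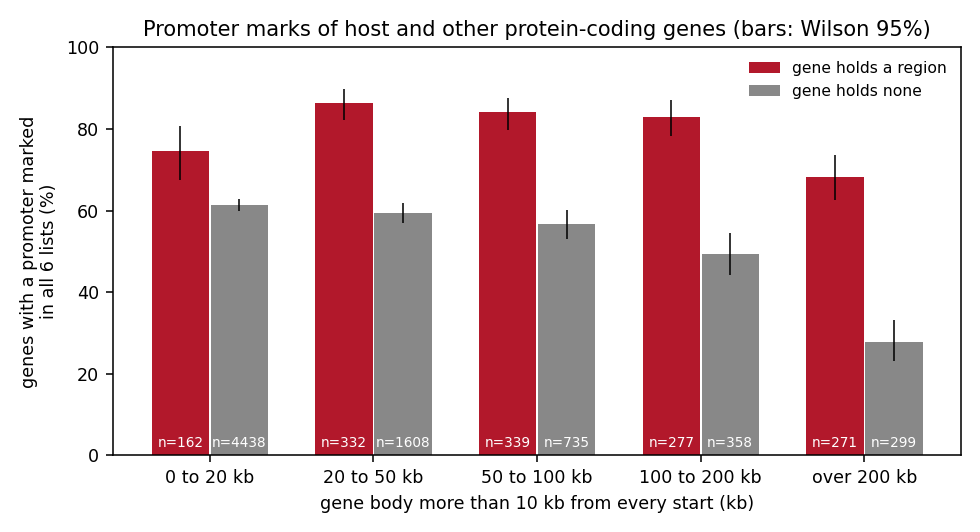
Percentage of protein-coding genes with a promoter marked in all 6 lists, by kb of gene body more than 10 kb from every start, for genes that hold an intragenic distal region and genes that hold none, with Wilson 95% bars and gene numbers. Hosts are above other genes in each class, from 74.7% against 61.3% in the shortest to 68.3% against 27.8% in the longest.

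Host genes were then grouped by function in 6 lists of 25 genes each, chosen from general knowledge with earlier results of these data known. They are read beside the 15.7% of all eligible genes that held a member and the 4.43 members per Mb of all gene bodies. Genes with more eligible sequence have more room for a member, so the density is given beside each share.

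Of adhesion and actin genes, 14 of 22 eligible (63.6%, 43.0% to 80.3%) held 36 members, at 12.7 per Mb. They include Lpp with 10, Pdlim5 with 6, Myo1e with 5, and Ptk2, the focal adhesion kinase. The strongest was at chr16:24910381-24911215 in Lpp, at percentile 22.9 in Q7SST, 39.8 in Q111SST, 86.6 under cyproheptadine, 91.2 under loxapine, 81.6 under DKI and 85.4 under meclizine. The Pdlim5 region in intron 3 stood at 38.0, 47.0, 71.9, 75.6, 54.1 and 75.2 in the same order. By percentile both were lowest in Q7SST and higher with each compound than in Q111SST. By base pairs of peaks they were instead largest in Q111SST, at 835 bp in Lpp, against 440 to 558 bp with the compounds, and at 2632 bp in Pdlim5, against 1454 to 1849 bp. Base pairs here and below are not ranked within a list. Over all regions found in all 6 lists their median was also largest in Q111SST, at 1413 bp against 1065 bp (DKI) to 1349 bp (loxapine) with the compounds.

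Of TGF-beta, BMP and Hippo genes, 15 of 25 (60%, 40.7% to 76.6%) held 24 members, at 12.3 per Mb. The hosts include the receptors Tgfbr1, Tgfbr2, Tgfbr3 and Acvr1, the inhibitory Smads Smad6 and Smad7, the latent TGF-beta binding protein Ltbp1 with 6 members and Wwtr1, which encodes TAZ, with 5. The Smad6 region stood at 68.2 in Q7SST, 66.7 in Q111SST, 77.9 under cyproheptadine, 84.2 under loxapine, 69.8 under DKI and 67.1 under meclizine. The Wwtr1 region in intron 3 stood at 43.2, 63.2, 68.6, 81.3, 72.2 and 62.6. Both were highest with loxapine by percentile, and largest in Q111SST by base pairs of peaks, at 1479 bp in Smad6 and 1966 bp in Wwtr1 against 1213 and 1525 bp with loxapine.

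Of transcription factors of long genes, 19 of 25 (76.0%, 56.6% to 88.5%) held 41 members, at 8.04 per Mb. Zbtb20 held 5, Foxp1 and Nfib 4 each, and Ebf1, Meis1 and Tcf7l2 were among those with 3. A Zbtb20 region that touches an untranslated exon stood at 26.0 in Q7SST and at 70.9, 88.3, 79.9, 79.7 and 80.1 in the mutant lists. This Zbtb20 region was lowest in Q7SST by percentile, while by base pairs of peaks it was largest there, at 2827 bp against 899 to 1324 bp in the other 5 lists.

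The neural lists were sparser per Mb. Of axon guidance genes, 10 of 24 (41.7%, 24.5% to 61.2%) held 14 members, at 2.28 per Mb. Sema5a held the most, with 3, and the strongest regions were in Sema3d and Sema3e, which encode secreted guidance ligands. Of neuronal channel and synaptic genes, 10 of 24 held 15 members, at 1.12 per Mb, and only 7 of the 24 promoters were marked in all 6 lists. The Sema3d region stood at 76.2 in Q7SST, 53.8 in Q111SST, 89.3 under cyproheptadine, 96.4 under loxapine, 95.9 under DKI and 82.4 under meclizine. The Sema3e region stood at 20.4, 69.2, 64.1, 91.9, 93.6 and 73.4. Loxapine and DKI were the highest lists for both by percentile. By base pairs of peaks, Sema3d was largest in Q111SST (994 bp) and Sema3e in Q7SST (1039 bp), against 671 and 803 bp with loxapine and 663 and 568 bp with DKI.

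The channel regions varied less. Cacna1c and Cacna1a encode pore subunits of voltage-gated calcium channels, and their regions lay between 58.3 in Q111SST and 76.4 under DKI, and between 55.8 in Q111SST and 75.3 in Q7SST. Of autophagy and mTOR genes, 8 of 18 (44.4%, 24.6% to 66.3%) held 10 members, at 5.11 per Mb. The Tecpr2 region lay between 32.9 under meclizine and 77.6 under DKI, and the Rptor region, in the gene of the mTORC1 subunit raptor, between 2.52 in Q111SST and 34.4 under loxapine. The median percentile of the autophagy and mTOR members was 10.5, against 15.8 for adhesion and actin and 23.7 to 25.5 for the other 4 lists.

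Members varied more between lists than promoters did. The spread, the highest minus the lowest percentile of a region over the 6 lists, had a median of 29.2 points in members, 30.7 in distal intergenic regions and 21.1 within 1 kb of a start. It was under 10 points in 87 members (3.89%) and over 50 in 255 (11.4%), against 9.39% and 7.61% of all regions. Over 50 points the share of distal intergenic regions was 14.2%. Weak peaks are ranked less precisely, and how much of the wider spread comes from that was not tested.

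Q7SST stood at the edge of the range most often. It was the lowest of the 6 lists in 710 members (31.8%) and the highest in 465 (20.8%), against 21.9% and 23.1% of all regions found in all 6 lists. Loxapine was the highest in 520 members (23.3%, against 16.8% of all regions) and the lowest in 229 (10.2%, against 19%). Q111SST was the highest in 244 (10.9%, against 15.4% of all regions) and the lowest in 333 (14.9%, against 12.2%). Q7SST lay at least 20 points below all 5 mutant lists in 129 members (5.77%, against 3.51% of all regions) and at least 20 points above them in 88 (3.94%, against 3.1% of all regions). In distal intergenic regions these shares were 6.58% and 4.52%. There Q7SST was lowest in 26.9% and highest in 22.2%, and loxapine was highest in 22.9% and lowest in 12.4%. Most of these traits are thus not particular to members.

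The comparison of genotypes asked which members differ between the wild-type and the mutant line with vehicle. A region was called higher or lower than Q111SST when its percentile differed by at least 20 points. In Q7SST, 303 members (13.6%) were higher, against 10.3% of all regions, and 364 (16.3%) were lower, against 9.91%. The median difference was -1.36 points (middle 50%, -13.3 to 10.8). Distal intergenic regions divided evenly, with 15% higher and 14.7% lower. Both directions were more frequent in members than over all regions. Higher minus lower calls came to -2.73 percentage points of members, to -5.86 when ranked by base pairs of peaks and to -21.6 with the percentile among all peaks of each list.

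The largest rise in Q7SST was in Cdk15, a cyclin-dependent kinase gene, where the percentile was 88.0 in Q7SST, 3.51 in Q111SST, 52.8 under cyproheptadine, 56.2 under loxapine, 57.3 under DKI and 31.6 under meclizine. Next was Gucy2g, a receptor guanylate cyclase, at 97.7 in Q7SST and 14.1, 4.80, 8.30, 12.5 and 21.8 in the mutant lists. The Gucy2g region touches coding sequence and covers a RefSeq start, and its 5 mutant values stay within 4.80 to 21.8. The Cdk15 region was lowest in Q111SST, and every compound list lay between the vehicle lists.

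The largest falls in Q7SST were in Sh3rf1, a scaffold of JNK signalling, and Zfhx3, a homeodomain and zinc finger factor. The Sh3rf1 region in intron 2 stood at 13.8 in Q7SST and 94.2, 81.7, 95.2, 93.2 and 89.7 in Q111SST, cyproheptadine, loxapine, DKI and meclizine. The Zfhx3 region in intron 7 stood at 10.6 in Q7SST and 82.9, 92.0, 95.5, 85.5 and 89.5. Both regions were high in all 5 mutant lists and low in the wild-type list.

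The other 4 comparisons asked what each compound does in mutant cells. All 5 comparisons share the Q111SST list, so an error in that list moves all of them together. Regions named for rises and falls were picked by the difference from Q111SST, which favours an extreme value in that list. With loxapine, 391 members (17.5%) were higher, against 8.98% of all regions, and 116 (5.19%) lower, against 7.35%. With cyproheptadine, 296 (13.2%) were higher, against 8.88%, and 182 (8.14%) lower, against 8.07%. Over all regions the shares in each direction were closer to even, and in members the higher calls outnumbered the lower ones with both compounds.

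With DKI, 294 members (13.1%) were higher, against 9.63% of all regions, and 165 (7.38%) lower, against 8.68%. With meclizine, 192 (8.59%) were higher, against 5.42%, and 98 (4.38%) lower, against 3.85%. Distal intergenic regions had close shares in all 4 lists, for example 17.2% higher and 6.58% lower with loxapine, and regions within 1 kb of a start had the opposite balance, 3.71% higher and 7.98% lower with loxapine. Percentiles sum to a constant within a list, so a rise of distal regions has to be balanced by a fall elsewhere.

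The direction depended on the measure. When regions were ranked by base pairs of peaks instead of the score, higher minus lower calls among members fell below 0 for every compound. It went from 12.3 to -1.03 percentage points for loxapine, from 5.77 to -5.19 for DKI, from 5.10 to -4.16 for cyproheptadine and from 4.20 to -4.56 for meclizine. For loxapine the interval of the base-pair value, -2.63 to 0.57, included 0. When the percentile was taken among all peaks of each list, it was -16.4 under cyproheptadine, -26.7 under DKI and -2.68 under meclizine, and 12.2 under loxapine. The lists differ in size, from 30758 to 45564 peaks, and in median peak width, which was 922 bp in Q111SST and 766 bp under cyproheptadine, and the part of these differences was not tested.

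**Figure D4:**
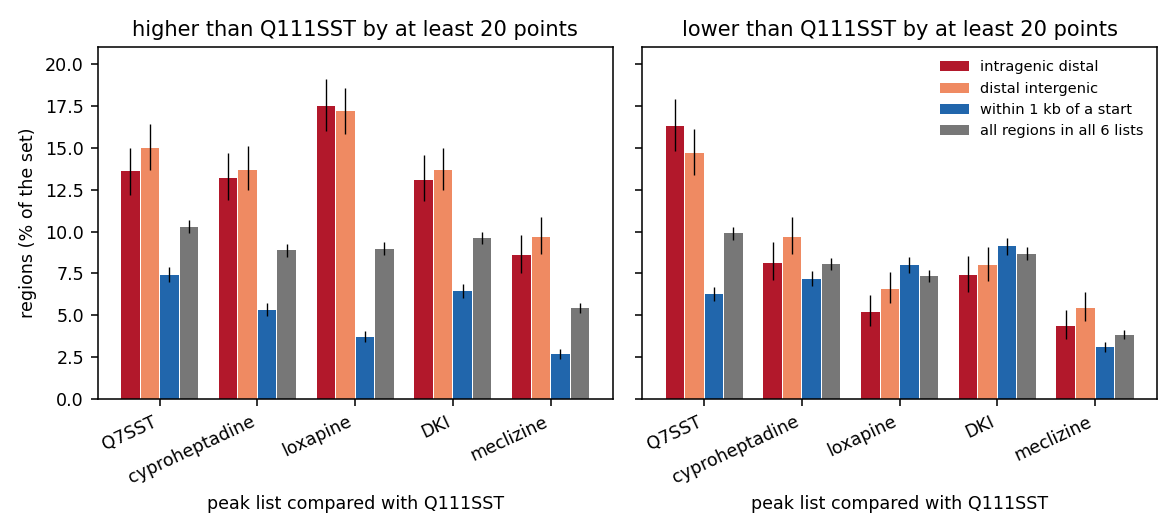
Percentage of regions whose strength percentile was higher (left) or lower (right) than in Q111SST by at least 20 points, for each of the 5 other lists and 4 sets of regions, with Wilson 95% bars. Intragenic distal regions exceed all regions among the higher calls in all 5 lists, most with loxapine at 17.5% against 8.98%. Regions under percentile 20 in Q111SST cannot be called lower. With base pairs in place of the score, the excess of higher over lower calls with the 4 compounds changes sign.

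By score percentile, members with and without an AP-1 match differed most with loxapine. Higher calls were made for 224 of the 1096 with a match (20.4%, 18.2% to 22.9%) and 167 of the 1140 without (14.6%, 12.7% to 16.8%), and lower calls for 3.92% (2.93% to 5.24%) and 6.40% (5.12% to 7.98%). With cyproheptadine, 15.1% (13.1% to 17.3%) and 11.5% (9.77% to 13.5%) were higher. In Q7SST the shares were nearly equal, 13.4% and 13.7% higher and 16.8% and 15.8% lower. With DKI, 13.3% and 13.0% were higher, and with meclizine 9.67% and 7.54%. All of these share the Q111SST list and have no replicates. The division by AP-1 was not repeated with base pairs of peaks, by which the balance of calls for loxapine over all members was -1.03 percentage points. It was also not made for other sets of regions. Members with a match had a median percentile of 28.0 and width of 1221 bp, against 25.7 and 1408 bp, and the part of this was not tested.

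The largest rises with cyproheptadine were in Catsperb, a subunit of the sperm calcium channel, and Cmss1. The Catsperb region stood at 18.7 in Q7SST, 7.49 in Q111SST, 81.7 under cyproheptadine, 54.8 under loxapine, 34.9 under DKI and 27.3 under meclizine. The Cmss1 region, which also lies in Filip1l, stood at 28.3, 9.06, 77.9, 3.29, 92.6 and 2.09 in the same order and was also the largest rise with DKI. In the central 500 bp of the Cmss1 region 30.6% of the 50-base words were repeated elsewhere. It was high with cyproheptadine and DKI and under 30 in the other 4 lists.

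The largest falls with cyproheptadine were in Bfsp1, a lens filament protein, and Zbtb20, a zinc finger repressor. The Bfsp1 region, only 350 bp wide, stood at 85.9 in Q7SST, 79.1 in Q111SST, 8.53 under cyproheptadine, 30.9 under loxapine, 33.8 under DKI and 55.1 under meclizine. The Zbtb20 region in intron 6 stood at 43.2, 72.8, 17.5, 29.1, 40.6 and 70.1. In both regions, all 4 compound lists lay below Q111SST, and meclizine was the nearest to it.

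With loxapine, the largest rises were in Lingo2, a leucine-rich repeat membrane protein, and Myo1d, an unconventional myosin. The Lingo2 region stood at 5.98 in Q7SST, 8.26 in Q111SST, 34.3 under cyproheptadine, 81.3 under loxapine, 12.5 under DKI and 7.88 under meclizine. The Myo1d region in intron 21 stood at 6.74, 19.3, 31.2, 79.1, 23.7 and 17.1, with 23.9% of the 50-base words of its central 500 bp repeated elsewhere. In both, loxapine stood above each of the other 5 lists by more than 40 points, with cyproheptadine next.

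The largest falls with loxapine were in Grk5, a kinase of G protein-coupled receptors, and Diaph1, an actin-nucleating formin. The Grk5 region stood at 41.9 in Q7SST, 72.8 in Q111SST, 37.5 under cyproheptadine, 19.3 under loxapine, 57.3 under DKI and 60.2 under meclizine. Every 50-base word of its central 500 bp was repeated in the assembly. The Diaph1 region stood at 54.5, 83.3, 40.6, 32.7, 72.2 and 80.1, with no repeated word in its central 500 bp. Cyproheptadine was the second lowest list in both.

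With DKI, the second largest rise was in Eml1, a microtubule-binding protein, where the region in intron 1 stood at 17.9 in Q7SST, 24.9 in Q111SST, 49.1 under cyproheptadine, 48.3 under loxapine, 89.6 under DKI and 43.4 under meclizine. The largest falls were in Matn2, a matrix protein, at 31.3, 59.5, 8.53, 22.8, 6.09 and 38.1, and in P3h2, a collagen prolyl hydroxylase, at 39.9, 54.5, 57, 68.7, 4.25 and 56.8. The Matn2 region fell in all 4 compound lists, whereas the P3h2 region was low with DKI alone among the 6 lists.

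With meclizine, the largest rises were in Nr6a1, an orphan nuclear receptor, and Myo16, an unconventional myosin. The Nr6a1 region in intron 4 stood at 38.0 in Q7SST, 2.98 in Q111SST, 25.6 under cyproheptadine, 8.97 under loxapine, 32.8 under DKI and 69.1 under meclizine. The Myo16 region stood at 42.6, 7.49, 26.8, 8.97, 40.6 and 68.1. Both were lowest in Q111SST, which the choice by largest rise favours, and next lowest with loxapine. The Q7SST value was second to that with meclizine in both.

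The largest falls with meclizine were in Kctd16, an auxiliary subunit of GABA-B receptors, and Vti1a, a SNARE of vesicle fusion. The Kctd16 region stood at 54.5 in Q7SST, 96.2 in Q111SST, 99.8 under cyproheptadine, 81.3 under loxapine, 99.4 under DKI and 34.4 under meclizine. The Vti1a region in intron 8 stood at 19.6, 57.1, 17.5, 15.9, 28.9 and 6.74, with 3 AP-1 matches in its central window. The Vti1a region was highest in Q111SST and low in all 5 other lists. The Kctd16 region was lowest with meclizine, next lowest in Q7SST and above 80 elsewhere.

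For several of these regions the base pairs of peaks went the other way from the percentile. The base pairs are not ranked within a list, and over all regions found in all 6 lists their median was largest in Q111SST. It was 1413 bp there, 1312 bp in Q7SST, and 1119.5, 1349, 1065 and 1286 bp under cyproheptadine, loxapine, DKI and meclizine. In Gucy2g peaks covered 563 bp in Q7SST and 2047 bp in Q111SST, in Cmss1 693 bp under cyproheptadine and 429 bp under DKI against 1357 bp, and in P3h2 871 bp under DKI against 444 bp. It was also so for Catsperb (336 bp under cyproheptadine, 774 bp in Q111SST), Eml1 (645 bp under DKI, 1124 bp in Q111SST) and Grk5 (831 bp under loxapine, 678 bp in Q111SST). Under meclizine, peaks covered 225 bp in Nr6a1 and 289 bp in Myo16, against 391 and 402 bp in Q111SST. Both of the largest rises by percentile under cyproheptadine, under DKI and under meclizine were thus falls by these unranked base pairs. In the other named changes, such as Sh3rf1 (544 bp in Q7SST, 1013 bp in Q111SST) and Lingo2 (759 bp under loxapine, 615 bp in Q111SST) both measures had the same direction.

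**Figure D5:**
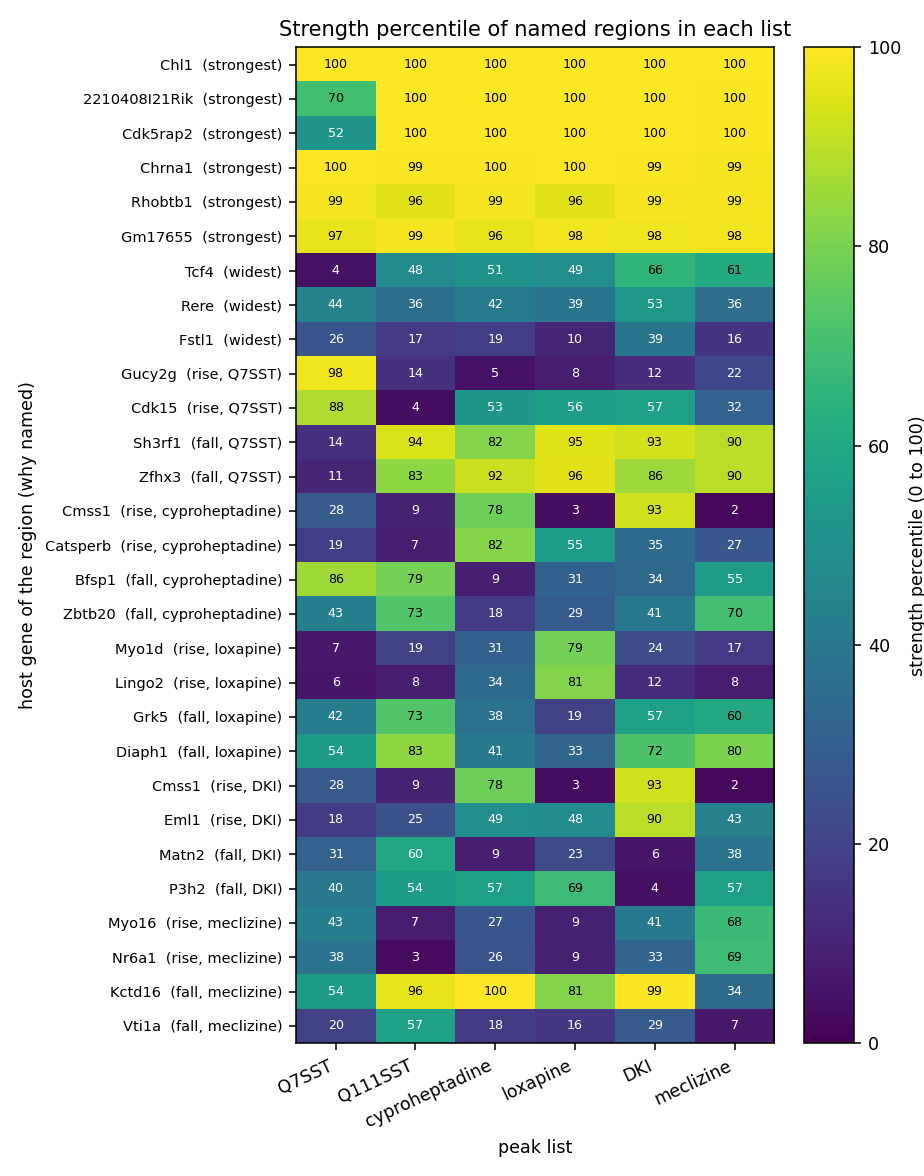
Strength percentile (0 to 100) of the regions named for their strength, width or change, with a row for each region by host gene and a column for each peak list. The Sh3rf1 and Zfhx3 rows are low in Q7SST alone, the Lingo2 and Myo1d rows are high with loxapine alone, and the Chl1, Chrna1, Rhobtb1 and Gm17655 rows are high in all 6 lists.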

How the data were processed

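H3K4me3 ChIP-Seq peak lists of 6 conditions were used, 1 list per condition, with groups taken from the sample labels. Per the submitters' processing notes, which give no order of steps, the authors used Trimmomatic 0.36, Bowtie2, SAMtools 1.3 and MACS2 on mm10. Whether replicate cultures were pooled into a list, the thresholds and any input control are not given in the sources used here. Chromatin had been cut with MNase and read as single 50-base reads. Each deposited row holds a peak's position and its score, a whole number made by the authors on a scale that is not stated. Lists were compared by ranks within a list, and scores of some regions are printed as given. Depth is unknown.

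Peaks that overlapped by at least 1 bp were merged, and distance was taken from the nearest region edge to the nearest GENCODE M21 transcript start. Sequence came from GRCm38.p6 (RefSeq), the same build as mm10. Peaks, sequences and tables were handled with pysam 0.24.0, numba 0.67.0, pandas 2.3.3, numpy 2.4.6, scipy 1.17.1 and matplotlib 3.10.9 under Python 3.11.15, and similar sequence was sought with blastn 2.17.0. Shares carry Wilson 95% intervals and medians carry binomial order-statistic intervals, which cover counting error only. The procedure was tested on simulated lists with planted members, shifts and motifs.

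The regions named are the 6 strongest, the 3 widest, the 6 genes with most members, the 2 largest rises and 2 largest falls in each comparison with Q111SST, the 2 strongest of each gene list, the 3 on each side of the distance limit, and the members whose sequence is shown. The 3 strongest with matches elsewhere and the 5 strongest exon-free members with an AP-1 match were shown. The members, gene lists and tests were chosen with earlier results of these data known. Alternatives are in the closing section. An item named by this rule is not reported here.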

Additional observations from a re-analysis of the deposited data

How the results depend on the processing

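No paired analysis was possible because the lists number 1 per condition. With no replicates and unknown depth, no difference between lists can be set against the spread between cultures, and regions absent from a list may be below its detection. Of 110 values computed under alternative settings, 66 stayed within the interval of the reported value (for the member count, within 1.5 times), 37 moved further and 7 changed sign. Merging peaks within 1 kb, a gene-body overlap of 1 bp and a distance limit of 5 kb moved no value further than that. Except where stated, the cause was not tested.

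The member count was 1249 at a distance limit of 20 kb, 478 when only peaks with a score of 47 or more, the median of all lists, were kept, and 904 when peaks had to cover at least 50% of the region in every list, all by construction. In the order stricter score, 50% coverage, 5 mutant lists required, percentile among all peaks of each list, and base pairs, the strength of members, as the median over the lists of each list's median percentile (27.5), was 30.9, 23.9, 30, 52.2 and 29.5.

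Higher minus lower calls against Q111SST, in percentage points of members, changed sign with base pairs for cyproheptadine (-4.16), loxapine (-1.03, interval -2.63 to 0.57), DKI (-5.19) and meclizine (-4.56). They also did so with the percentile among all peaks for cyproheptadine (-16.4), DKI (-26.7) and meclizine (-2.68). For Q7SST (-2.73) these alternatives gave -5.86 and -21.6. With the stricter score the values for cyproheptadine, loxapine, DKI and meclizine were 12.3, 26.8, 18.4 and 16.1, with 50% coverage 7.41, 17.1, 11.2 and 6.97, and with a call threshold of 10 points 9.21, 20.2, 8.50 and 6.44. Lists of equal size (30758 peaks) gave 15.1 for loxapine, 8.17 for DKI and 5.90 for meclizine, and requiring 5 lists gave 10.2 for loxapine.

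The AP-1 share was 54.0% with 50% coverage, 73.8% over the whole region and 25.6% in the central 200 bp, and the CpG-dense share 2.09% with the stricter score, 1.77% with 50% coverage and 0.716% over the whole region. At 20 kb, 91.9% of members touched no exon and 77.3% of host genes were marked in all 6 lists. That last share was 66.3% with the stricter score, 54.5% with a peak over the start itself and 82.8% within 5 kb.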
